A study of Mus musculus with 8 samples.

Results

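The nuclear genes that copy, transcribe, process and degrade the mitochondrial genome's nucleic acids were followed in hearts that overexpress FASTKD1. The group holds 32 genes, listed by name from their known roles, with earlier results of these data known. Among the 13227 genes of the deposited counts, 31 of them were present. Slirp, the partner protein of LRPPRC, was not analysed here. RNA came from whole hearts of mice labelled as 3-month-old male FVB/N, 8 in all. Of these, 4 were non-transgenic, lettered A, B, D and E, and 4 carried the FASTKD1 transgene, lettered A, B, C and E. Overexpression is described as cardiac-specific in the title of the series. The sources used here name neither the promoter behind the transgene nor the number of transgenic lines. No other allele or agent is named for either group. In whole-heart RNA, fewer cells of a type and less RNA per cell cannot be told apart.

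Mitochondrial DNA is small and circular, is packaged by TFAM and is copied by the polymerase POLG with the helicase TWNK and the single-strand binding protein SSBP1. POLRMT transcribes it with TFAM and TFB2M into long RNAs that hold many genes in a row. RNase P and the ELAC2 nuclease cut these at the transfer RNAs, after which messages are tailed by MTPAP, protected by LRPPRC with SLIRP, translated, and finally degraded by the SUPV3L1 and PNPT1 complex and by REXO2. FASTKD1 belongs to the FASTK family, RNA-binding proteins that act on the same transcripts inside mitochondria. Heart muscle is rich in mitochondria, and loss of several of these factors in the mouse heart is known to cause cardiomyopathy.

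Total counts per library ran from 44584359 to 55769859. Fastkd1, the targeted gene, stood at 26.3, 30.2, 192 and 33.8 CPM in non-transgenic and 10030, 9341, 8845 and 11520 CPM in transgenic hearts (letters in the order A, B, D, E and A, B, C, E, here and below; CPM is the count over the TMM-scaled library size, times 1e+06). The transgenic level was higher in every heart (log2 fold change 7.14; SE 0.75; adjusted p = 0.000684 in edgeR). The library labelled non-transgenic D stood apart: its Fastkd1 level was above that of the other non-transgenic hearts, and it had 238 counts over 6 Y-linked genes, where the other libraries, all labelled male, had 10462 to 16146. Without it the log2 fold change of Fastkd1 was 8.36 (SE 0.18). The 8 ventricular cardiomyocyte markers examined, such as Myh6 and Tnnt2, were all detected and summed to 66000 to 77400 CPM in non-transgenic and 54400 to 57200 CPM in transgenic hearts. The 6 atrial markers in the counts together made up 3260 CPM in transgenic A and 624 CPM in non-transgenic D, against 31.5 to 281 CPM in each of the remaining 6. None of the markers examined for either muscle type, or for fibroblasts, endothelium, smooth muscle, immune cells, blood or fat, passed the test. The closest was Acta2 of smooth muscle, higher in every transgenic heart (log2 fold change 1.03, SE 0.21, edgeR adjusted p = 0.0505). Of the 8 ventricular markers, 5 were lower without overlap, beside 2.8% of all tested genes, while Ryr2 was near 0 (log2 fold change -0.005). The endothelial sum was 1159 to 1442 CPM in non-transgenic and 1072 to 1101 CPM in transgenic hearts, and the other sums overlapped between genotypes, apart from the ventricular sum. The part that these differences in markers play in the values below was not tested.

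None of the 31 genes passed the test between genotypes. In edgeR's quasi-likelihood test over 13226 genes, adjusted by Benjamini-Hochberg and read at 0.05, 0 of 31 rose and 0 fell, where 1.25% of all tested genes were called, 1.01% as higher and 0.242% as lower. DESeq2 and limma-voom also called 0 of 31, each with 2 at an unadjusted p under 0.05, and edgeR called 0 of 31 with non-transgenic D and transgenic A left out. In edgeR the count at an unadjusted p under 0.05 was 2 of 31 (6.45%), Mterf2 on the lower and Rexo2 on the higher side, beside 10.7% of all tested genes (5.38% lower and 5.37% higher). The edgeR adjusted p of the 31 genes ran from 0.418 to 0.992. A share this close to or under the background is not a result about these genes.

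The measurements limited how large an unseen change could be. The median log2 fold change of the 31 genes was -0.06, beside 0.01 for all tested genes, with a range from -0.44 (Mterf2) to 0.18 (Rexo2). Of the 31 genes, 18 (58.1%) had a value below 0, beside 48.8% of all tested genes. This lean towards lower values was not stable: the median was 0.0039 without non-transgenic heart B. With library totals in place of TMM it was 0.03, still below the 0.08 of all tested genes. The 95% interval of every single gene's fold change lay within 2-fold in either direction, and for 29 of 31 it lay within 1.5-fold. The exceptions were Mterf2, with a log2 interval of -0.84 to -0.04, and Ptcd3, with -0.60 to 0.11. These intervals hold for each gene on its own and come from the same fit as the test. The median SE was 0.11 on the log2 scale, with a range of 0.08 to 0.18.

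**Figure D1:**
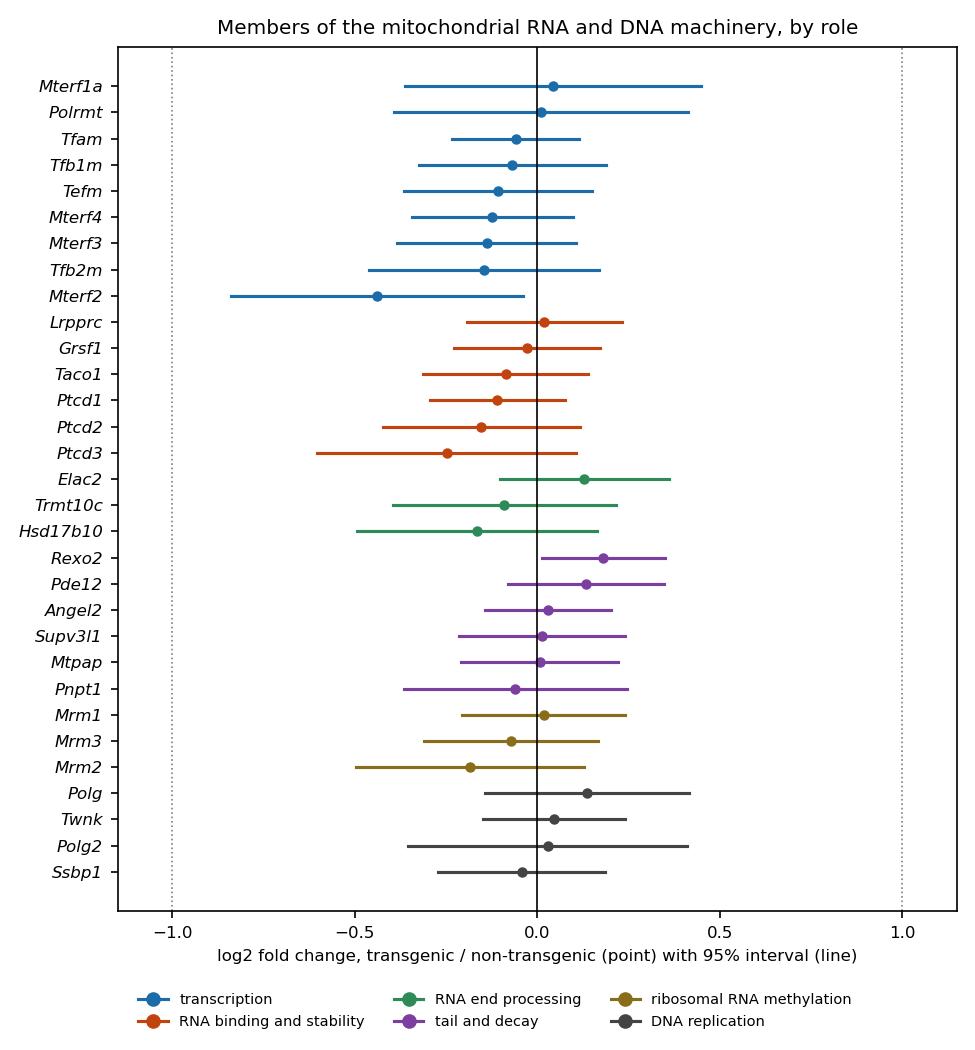
Log2 fold change of transgenic over non-transgenic hearts (horizontal axis) for each of the 31 genes (vertical axis, grouped and coloured by role), n = 4 hearts per genotype. Points are edgeR estimates, lines their 95% intervals, and dotted lines mark a 2-fold change; every line lies inside them, and only those of Mterf2 and Rexo2 do not cross 0.

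The genes differed widely in level. Levels between genes are compared as CPM per kilobase of annotated exon, over the union of all exons of a gene, which understates genes with long, seldom used exons. Hsd17b10, which encodes a subunit of mitochondrial RNase P and a dehydrogenase of isoleucine breakdown, was highest at 102 ± 22.2 in non-transgenic and 90.6 ± 6.46 CPM per kilobase in transgenic hearts (SD, n = 4 each). Grsf1, an RNA-binding protein of mitochondrial RNA granules, followed at 82.9 ± 6.6 and 81.3 ± 3.5 CPM per kilobase. At the other end stood Polg2, the accessory subunit of the DNA polymerase, at 0.631 ± 0.0694 and 0.643 ± 0.119 CPM per kilobase, and Mterf1a, known to bind mitochondrial DNA and end transcription, at 0.364 ± 0.0432 and 0.375 ± 0.0236. Heart by heart, Polg2 stood at 2.54, 3.05, 2.45 and 2.97 CPM in non-transgenic and 2.54, 2.2, 3.18 and 3.28 CPM in transgenic hearts, and Mterf1a at 0.952, 1.152, 1.27 and 1.2 CPM in non-transgenic and 1.09, 1.16, 1.27 and 1.19 CPM in transgenic hearts. Both overlapped between genotypes (edgeR adjusted p = 0.973 and 0.964). Mterf1a rested on 42 to 75 counts per heart and Polg2 on 110 to 188. A near-identical copy of Mterf1a exists in the mouse genome, Mterf1b, so the assignment of Mterf1a reads is uncertain.

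**Figure D2:**
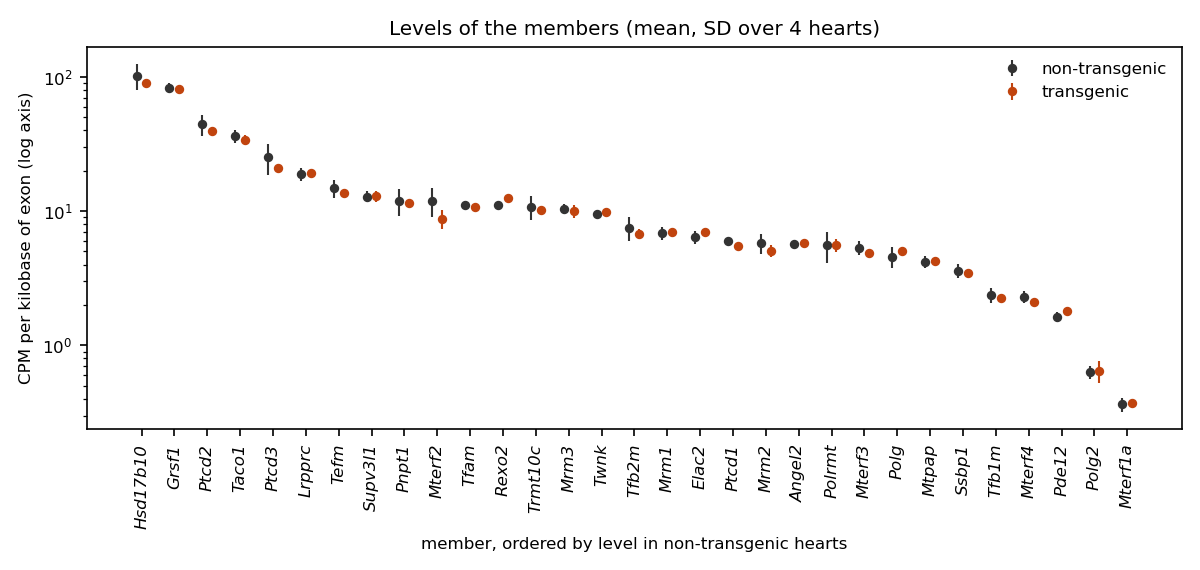
Level of each gene as CPM per kilobase of exon on a log axis (vertical) for the 31 genes ordered by their non-transgenic mean (horizontal). Points are means and bars SDs over 4 hearts per genotype; for every gene the transgenic mean lies close to the non-transgenic mean, while the genes span from under 1 to about 100 CPM per kilobase.

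Transcription factors of the mitochondrial genome were measured first. Tfam, which bends and coats mitochondrial DNA, stood at 52.3, 50.6, 44.8 and 50.6 CPM in non-transgenic and 46.7, 48.6, 48.3 and 46.7 CPM in transgenic hearts. The ranges overlapped, with non-transgenic heart D lowest of the 8 hearts (log2 fold change -0.06, SE 0.08, edgeR adjusted p = 0.855). Polrmt, the RNA polymerase itself, stood at 33.3, 17, 26 and 27.6 CPM in non-transgenic and 22.2, 26.1, 27.9 and 28.4 CPM in transgenic hearts. Its highest and its lowest value both belonged to non-transgenic hearts, A and B, and the group means were 26 ± 6.79 and 26.2 ± 2.8 CPM (SD, n = 4 each; log2 fold change 0.01, SE 0.18, edgeR adjusted p = 0.992). Tfb2m, which opens the promoter with POLRMT, had means of 21 ± 4.15 and 19 ± 1.66 CPM (log2 fold change -0.15, SE 0.14, edgeR adjusted p = 0.801). Its relative Tfb1m, a methyltransferase of the small ribosomal RNA, had 8.5 ± 1.09 and 8.1 ± 0.527 CPM, and the elongation factor gene Tefm 23.2 ± 3.45 and 21.5 ± 1.37 CPM (adjusted p by edgeR = 0.893 and 0.819).

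The MTERF genes encode proteins that bind mitochondrial DNA or ribosomal RNA. Mterf2 (ENSMUSG00000049038, GRCm38 chromosome 10, 85119433 to 85128027, minus strand) stood at 23.2, 26.6, 15.3 and 18 CPM in non-transgenic and 18.3, 15.5, 15.1 and 12.5 CPM in transgenic hearts. Non-transgenic hearts A and B lay above all transgenic hearts, whereas D and E lay inside the transgenic range. The change was the largest of the 31 genes in size (log2 fold change -0.44, SE 0.18, edgeR adjusted p = 0.418; unadjusted p = 0.0349). Over the alternatives its log2 fold change ran from -0.65 to -0.30, and its adjusted p from 0.0900 to 0.727, the lowest coming from edgeR with non-transgenic D and transgenic A both left out. Of its exon bases, 22.7% overlap Tmem263 on the other strand, and the sources used here do not say whether reads were counted by strand. Mterf3, linked to repression of transcription and to ribosome assembly, stood at 24.2, 31.1, 24.6 and 24.9 CPM in non-transgenic and 24.5, 24.9, 24.9 and 20.8 CPM in transgenic hearts. Apart from a high value in non-transgenic B and a low one in transgenic E, the hearts lay within 1 CPM of each other (log2 fold change -0.14, SE 0.11, edgeR adjusted p = 0.743). Mterf4, which brings a methyltransferase to the large ribosomal subunit, stood at 12.1, 14, 11.5 and 11.2 CPM in non-transgenic and 11.2, 11.6, 11.2 and 10.7 CPM in transgenic hearts (log2 fold change -0.12, SE 0.10, edgeR adjusted p = 0.745). Sned1 covers 35.2% of the Mterf4 exon bases on the other strand.

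Promoters of the group were read from RefSeq (GRCm38.p6) as windows of 250 bases before to 50 after each annotated start, for 30 of the 32 genes including Slirp, 36 windows in all. Mterf3 and Mtpap had no window. Exact matches on either strand were counted for 5 motifs, as a description only. The ETS motif CCGGAAGT, bound by the GABP factor among others, was present in 9 of 36 windows (25%), beside 3.89% of all 32851 windows of that length. The NRF1 motif was present in 3 (8.33%, beside 4.6%), the YY1 motif in 3 (8.33%, beside 0.633%) and the CRE motif TGACGTCA in 2 (5.56%, beside 1.79%). These motifs were not particular to the group. In 83 windows of the further pathway genes described below, the shares were 15.7% for ETS, 14.5% for NRF1, 2.41% for YY1 and 9.64% for CRE. The ATF4 composite motif TGATGNAA was present in 0 of 36, beside 3.97% of all windows, which says only that these letters are not in these windows. None of the motifs overlapped another in the stretches printed here, except that the NRF1 motif matched at 2 overlapping positions in Polrmt.

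Stretches of 85 bases before to 15 after an annotated start are shown for members of several roles that carry a match there, to show where it lies. Capitals mark the ETS motif in the first 4 and the NRF1 motif in Polrmt and Rexo2, either of them as its reverse complement where the match is on the other strand.
Tfam (chr10:71238030-71238129, minus strand): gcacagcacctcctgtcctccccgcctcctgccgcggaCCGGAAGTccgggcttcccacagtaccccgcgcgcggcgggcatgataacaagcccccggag
Tefm (chr11:80142139-80142238, minus strand): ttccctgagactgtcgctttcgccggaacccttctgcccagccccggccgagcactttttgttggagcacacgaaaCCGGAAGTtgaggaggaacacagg
Trmt10c (chr16:56037772-56037871, minus strand): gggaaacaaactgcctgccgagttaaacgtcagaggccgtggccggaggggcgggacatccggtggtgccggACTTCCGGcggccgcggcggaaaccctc
Polg (chr7:79466259-79466358, minus strand): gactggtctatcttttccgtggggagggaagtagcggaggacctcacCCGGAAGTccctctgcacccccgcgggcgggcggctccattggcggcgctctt
Polrmt (chr10:79746567-79746666, minus strand): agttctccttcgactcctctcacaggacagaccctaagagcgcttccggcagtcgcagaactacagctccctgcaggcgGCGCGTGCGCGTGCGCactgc
Rexo2 (chr9:48480597-48480696, minus strand): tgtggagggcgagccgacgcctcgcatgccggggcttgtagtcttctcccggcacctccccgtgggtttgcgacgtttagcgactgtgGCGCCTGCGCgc

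RNA-binding proteins that stabilise messages or assist their translation came next. Lrpprc, mutated in a form of Leigh syndrome, stood at 152, 186, 145 and 162 CPM in non-transgenic and 163, 163, 169 and 158 CPM in transgenic hearts. All 4 transgenic values fell inside the non-transgenic range (log2 fold change 0.02, SE 0.10, edgeR adjusted p = 0.969). Grsf1 stood at 256, 271, 224 and 255 CPM in non-transgenic and 253, 249.3, 254 and 231 CPM in transgenic hearts, all transgenic values lying inside the non-transgenic range, with means of 252 ± 20 and 247 ± 10.6 CPM (SD over 4 hearts; adjusted p = 0.95, edgeR). Taco1, the translational activator of the COX1 message, had 49.9 ± 5.44 and 47 ± 3.74 CPM (edgeR adjusted p = 0.839).

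The pentatricopeptide repeat genes Ptcd1, Ptcd2 and Ptcd3 each had a log2 fold change below 0. Ptcd3, a protein of the small ribosomal subunit, stood at 172, 233, 133 and 147 CPM in non-transgenic and 154, 143, 145 and 135 CPM in transgenic hearts. Heart B was far above the other non-transgenic hearts, and D lay below every transgenic heart (log2 fold change -0.25, SE 0.16, edgeR adjusted p = 0.661). Without non-transgenic heart B its log2 fold change was -0.06. Ptcd2, linked to processing of the cytochrome b message, stood at 76.9, 92.6, 60.8 and 71 CPM in non-transgenic and 70.2, 69.4, 67.4 and 63.9 CPM in transgenic hearts. It showed the same order of non-transgenic hearts, B above A, E and D (log2 fold change -0.15, SE 0.12, edgeR adjusted p = 0.741), and -0.04 without heart B. Ptcd1, linked to maturation of the large ribosomal RNA, stood at 20.3, 19.5, 18.4 and 19.9 CPM in non-transgenic and 17.4, 19.1, 18.5 and 17.4 CPM in transgenic hearts (log2 fold change -0.11, SE 0.08, edgeR adjusted p = 0.732). Its groups overlapped through transgenic hearts B and C and non-transgenic heart D.

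The enzymes that cut the long transcripts did not pass either. Elac2, the nuclease that trims the ends of transfer RNAs, stood at 25.3, 19.1, 22.3 and 22.7 CPM in non-transgenic and 22.2, 25.4, 25.6 and 24.7 CPM in transgenic hearts. Non-transgenic heart B was the lowest of the 8 (log2 fold change 0.13, SE 0.10, edgeR adjusted p = 0.745). Trmt10c, the RNase P subunit that also methylates transfer RNAs, had means of 32.4 ± 6.81 and 30.4 ± 1.97 CPM (log2 fold change -0.09, SE 0.14, edgeR adjusted p = 0.88). Hsd17b10 stood at 149.6, 162, 101 and 115 CPM in non-transgenic and 113, 129.5, 117 and 111 CPM in transgenic hearts. Non-transgenic hearts A and B were above every transgenic heart and D below every transgenic heart (log2 fold change -0.16, SE 0.15, edgeR adjusted p = 0.777).

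Tailing and decay held the gene whose groups did not overlap. Rexo2 (ENSMUSG00000032026, GRCm38 chromosome 9, 48468512 to 48480623, minus strand), the nuclease that clears the shortest RNA fragments, stood at 37.4, 36.4, 38.4 and 37.5 CPM in non-transgenic and 40.8, 44.4, 44.2 and 40.3 CPM in transgenic hearts. The lowest transgenic value exceeded the highest non-transgenic value by a small step (log2 fold change 0.18, SE 0.08, edgeR adjusted p = 0.424; unadjusted p = 0.0374). It was the only such gene of the 31 (3.23%), where 7.38% of all tested genes had no overlap, 4.58% with the transgenic group higher and 2.8% lower. Over the alternatives its log2 fold change stayed between 0.14 and 0.25, and its adjusted p between 0.109 and 0.865, the lowest coming from limma-voom with sample weights. Pde12, a phosphodiesterase that removes tails, stood at 11.5, 14.2, 12.2 and 12.5 CPM in non-transgenic and 13.5, 13.8, 14.7 and 13.2 CPM in transgenic hearts (log2 fold change 0.13, SE 0.10, edgeR adjusted p = 0.713). Here non-transgenic heart B lay among the transgenic hearts and the other non-transgenic hearts lay below them.

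Mtpap, the poly(A) polymerase, stood at 24.9, 30.1, 24.8 and 24.4 CPM in non-transgenic and 24.2, 27.3, 26.1 and 26.9 CPM in transgenic hearts. Non-transgenic heart B was highest and the other 7 hearts lay between 24.2 and 27.3 CPM (log2 fold change 0.01, SE 0.10, edgeR adjusted p = 0.991). Pnpt1, the ribonuclease of the mitochondrial degradosome, showed the same single high heart at 37.9, 55.9, 37.8 and 35.9 CPM in non-transgenic and 40.3, 41.4, 39.9 and 39 CPM in transgenic hearts (log2 fold change -0.06, SE 0.14, edgeR adjusted p = 0.926). Its partner helicase gene Supv3l1 had means of 38 ± 3.61 and 38.3 ± 3.74 CPM, and Angel2, an RNA phosphatase, 31.4 ± 1.47 and 32.1 ± 1.08 CPM (SD over 4 hearts each; adjusted p by edgeR = 0.98 and 0.937).

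The ribose methyltransferases of the large ribosomal RNA gave Mrm1 at 19.8 ± 2.14 and 20 ± 1.06 CPM, and Mrm3 at 20.2 ± 1.67 and 19.2 ± 2.14 CPM (SD over 4 hearts each; adjusted p by edgeR = 0.971 and 0.878). Mrm2 stood at 10.1, 8.65, 6.94 and 7.56 CPM in non-transgenic and 8.22, 7.42, 7.34 and 6.3 CPM in transgenic hearts, with its highest value in non-transgenic A and its lowest in transgenic E (log2 fold change -0.18, SE 0.14, edgeR adjusted p = 0.732). In DNA replication, Polg, the catalytic subunit of the DNA polymerase, stood at 54.9, 36.6, 51 and 54.6 CPM in non-transgenic and 54, 52.9, 53 and 56.7 CPM in transgenic hearts. A single low value, in non-transgenic heart B, set the group means of 49.3 ± 8.64 and 54.2 ± 1.76 CPM apart (log2 fold change 0.14, SE 0.13, edgeR adjusted p = 0.788), and without that heart the log2 fold change was 0.02. Twnk, the replicative helicase, stood at 36.8, 36.8, 36.8 and 42.2 CPM in non-transgenic and 36.4, 38.9, 39.4 and 42.9 CPM in transgenic hearts (log2 fold change 0.05, SE 0.09, edgeR adjusted p = 0.91). Non-transgenic hearts A, B and D had nearly the same level and E a higher one. Mrpl43 overlaps 12.6% of the Twnk exon bases on the other strand. Ssbp1 had means of 30.1 ± 3.7 and 29.2 ± 1.48 CPM and Polg2 2.75 ± 0.302 and 2.8 ± 0.517 CPM (edgeR adjusted p = 0.928 and 0.973).

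The level of this machinery varied between hearts of the same genotype. Summed over the 31 genes, the level was 1486, 1654, 1284 and 1416 CPM in the non-transgenic group and 1396, 1427, 1429 and 1341 CPM in the transgenic group. These sums are in TMM-scaled CPM, and on that scale the transgenic sums fell inside the non-transgenic range. The SD was 154 CPM in non-transgenic and 41.2 CPM in transgenic hearts around means of 1460 and 1400 CPM. With counts over library totals, the non-transgenic sums instead lay closer together than the transgenic ones, and transgenic C was the highest of all hearts. For 26 of 31 genes (83.9%) the SD of log2 CPM was larger in the non-transgenic group, beside 77.6% of all tested genes, a share near that of the whole transcriptome. Without heart B it was larger for 22 of 31 (71%, beside 58.9%). Non-transgenic heart B had the highest value of all 8 hearts for 17 of 31 genes (54.8%, beside 28% of all tested genes), and non-transgenic heart D the lowest for 10 of 31 (32.3%, beside 13.9%). Transgenic heart E was the lowest for 8 of 31 (25.8%, beside 9.93%).

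**Figure D3:**
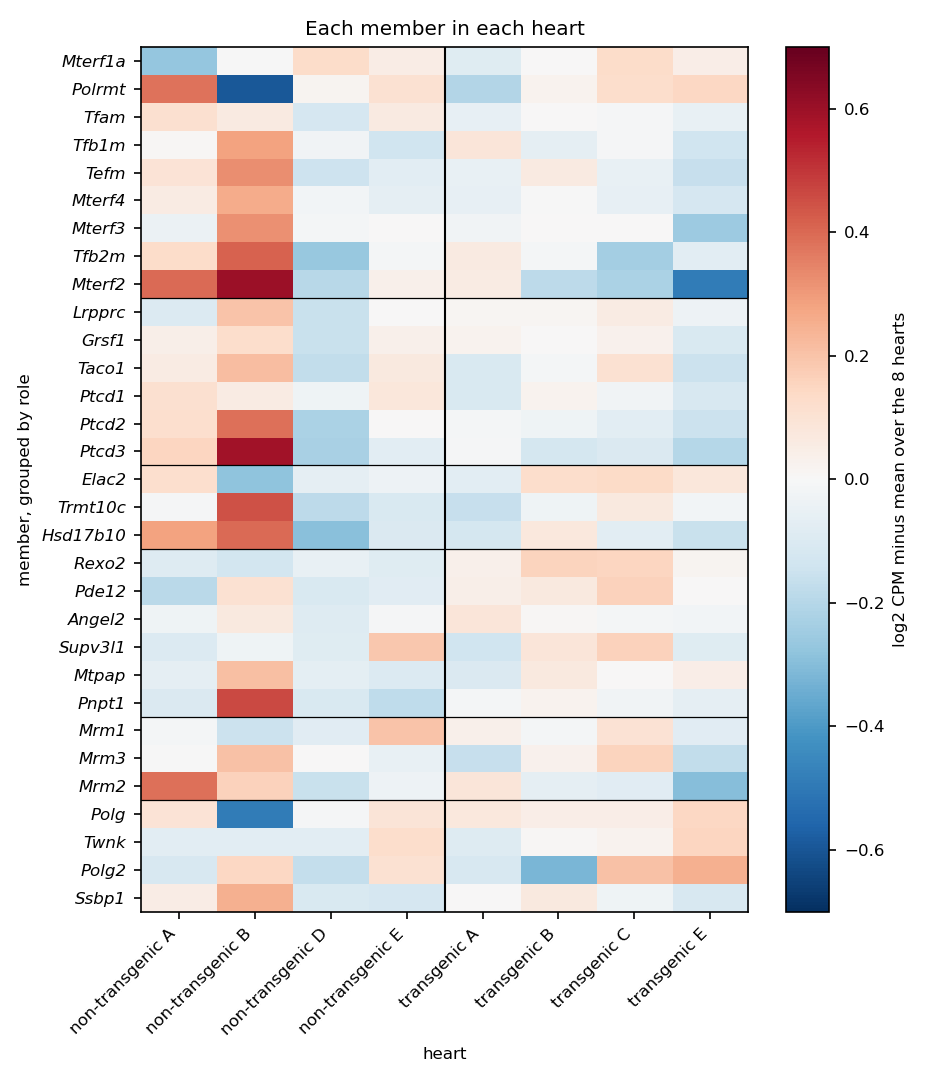
Log2 CPM of each gene (rows, grouped by role) in each heart (columns) as the difference from its mean over the 8 hearts, red above and blue below. Non-transgenic heart B is the column with the strongest colours, red for most genes and blue for Polrmt, Polg and Elac2, while most genes are pale in the 4 transgenic columns.

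Heart B was not the higher heart for every gene. It lay above the other 3 non-transgenic hearts for 20 of 31 genes and below them for 5, Polrmt, Polg, Elac2, Rexo2 and Mrm1, where all tested genes were split nearly evenly (36.2% above and 35.4% below). The position of a gene in heart B moved with base composition. Across the 31 genes, the deviation of log2 CPM in heart B from the gene's mean correlated with the GC content of the longest transcript at r = -0.635, and across 13214 genes at r = -0.495. These are descriptions across genes, which share the libraries and are not replicates. Polrmt, with 60.9% GC, was 0.60 below its mean in log2 CPM, and Pnpt1, with 40.6% GC, was 0.46 above. In the other 7 hearts the same correlation lay between -0.04 and 0.23 across all genes. Across the 31 genes it lay between -0.304 in transgenic A and 0.545 in non-transgenic E. Each deviation is taken from the mean over all 8 hearts, so a negative relation in heart B by itself pushes the others towards positive values. The positive values of other hearts therefore cannot show whether those hearts have a relation to GC content of their own. With GC content smoothed out of each library, a setting chosen after seeing the data, 0 of 31 genes passed, Mterf2 had a log2 fold change of -0.40 (edgeR adjusted p = 0.288), and the median deviation of the 31 genes in heart B went from 0.197 to 0.125. Heart B was still the highest heart for 16 of 31 genes after smoothing, and non-transgenic D and transgenic E were each the lowest for 8.

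**Figure D4:**
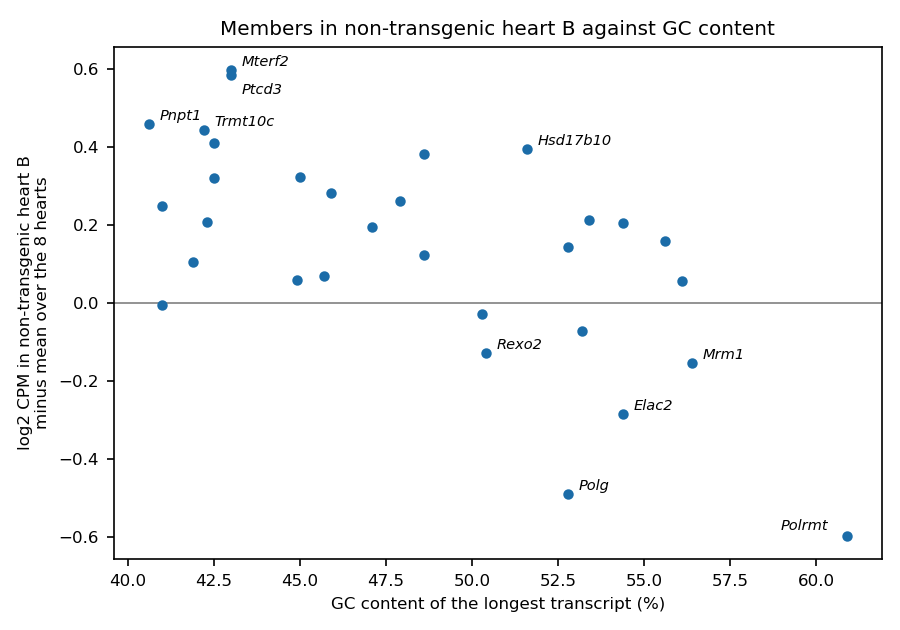
Deviation of log2 CPM in non-transgenic heart B from the mean over the 8 hearts (vertical) against GC content of the longest transcript in percent (horizontal), 1 point per gene, 31 genes. Points fall from upper left to lower right, with Mterf2 and Ptcd3 highest and Polrmt, at 60.9% GC, lowest.

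The transcripts on which these proteins act were measured in the same libraries. The 11 mitochondrially encoded genes in the counts took 25.3, 30.1, 18.6 and 21.2% of counts in the non-transgenic group and 27, 24, 21.9 and 23% in the transgenic group. The means of the groups were closer together than the hearts within a group (difference 0.199 percentage points, two-sided exact permutation p = 0.943 over 70 arrangements, smallest possible p 0.0286). In the non-transgenic group, hearts B, A, E and D had the same order in this share as in the TMM-scaled sum of the 31 nuclear genes. That match rests on the scaling: with counts over library totals, the sum was highest in E and lowest in A. The transgenic hearts did not keep that order. Of the 11 genes, 0 were called by edgeR, with log2 fold changes from -0.63 to 0.39.

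Other genes of the same pathways were examined from a list of 94 further genes, of which 92 were tested. Of these, 2 rose (2.17%), 0 fell and 90 did not pass, where 1.25% of all tested genes were called and 1.01% were called as higher. The median log2 fold change of the 92 genes was -0.07. Slc25a33, a carrier that brings pyrimidine nucleotides into mitochondria, stood at 9.81, 8.04, 9.94 and 10.7 CPM in non-transgenic and 15.8, 18.4, 16 and 17.5 CPM in transgenic hearts (log2 fold change 0.81, SE 0.11, edgeR adjusted p = 0.00414). Every transgenic heart was above every non-transgenic heart. Lonp1, the matrix protease known to degrade TFAM among other proteins, stood at 164, 110.4, 148 and 156 CPM in non-transgenic and 222, 346, 305 and 332 CPM in transgenic hearts (log2 fold change 1.06, SE 0.16, edgeR adjusted p = 0.00922). Its transgenic values were also above all non-transgenic values. Tfam RNA did not pass, and these counts do not measure TFAM protein. Neither gene passed in a fit on the 6 libraries whose letters occur in both groups, with the letter as a block (adjusted p = 0.0675 for Slc25a33 and 0.103 for Lonp1, edgeR). Next in order of p on the higher side was Pus1, a pseudouridine synthase, at 11.9, 9.4, 11.9 and 11.1 CPM in non-transgenic and 12.2, 13.9, 14.4 and 14.6 CPM in transgenic hearts (log2 fold change 0.32, SE 0.11, edgeR adjusted p = 0.317).

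On the lower side of the same list, Trmt5, a transfer RNA methyltransferase, stood at 39, 47.1, 33.6 and 33.2 CPM in non-transgenic and 33.3, 27.4, 26.9 and 26.3 CPM in transgenic hearts (log2 fold change -0.43, SE 0.13, edgeR adjusted p = 0.239). Top1mt, the mitochondrial topoisomerase, stood at 5.6, 6.63, 5.14 and 4.53 CPM in non-transgenic and 4.4, 4.0, 3.94 and 3.62 CPM in transgenic hearts. Its groups did not overlap, yet it did not pass (log2 fold change -0.45, SE 0.14, edgeR adjusted p = 0.251). Slc25a4, the ADP/ATP carrier of heart muscle, stood at 4249, 4691, 3353 and 3747 CPM in non-transgenic and 3375, 3245, 3213 and 2948 CPM in transgenic hearts (log2 fold change -0.33, SE 0.12, edgeR adjusted p = 0.331). By role, the median log2 fold change was 0.03 over 15 genes of DNA maintenance, -0.13 over 13 of nucleotide supply, 0.00 over 28 of RNA processing and modification, -0.07 over 21 of RNA granules and ribosome assembly, and -0.12 over 15 of translation. Values below 0 were found for 7 of 15 genes of DNA maintenance, 8 of 13 of nucleotide supply and 14 of 28 of RNA processing and modification. They were found for 15 of 21 of RNA granules and ribosome assembly. Genes of a list share the libraries and are not replicates. In the translation group, the most one-sided, 14 of 15 genes had a value below 0, beside 48.8% of all tested genes, and 0 passed. Without non-transgenic heart B the count was again 14 of 15, with a median of -0.06, and with library totals in place of TMM it was 12 of 15, beside 32.7% of all tested genes. Among the 31 genes the corresponding medians were -0.11 over 9 transcription genes, -0.10 over 6 of RNA binding, -0.09 over 3 of end processing, 0.02 over 6 of tailing and decay, -0.07 over 3 methyltransferases and 0.04 over 4 replication genes.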

How the data were processed

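The files hold deposited raw counts per Ensembl gene, not normalized, 1 library per file. The submitters' processing notes name cutadapt 1.15, TopHat2, GRCm38 and mm10. How reads were counted, and whether by strand, is not given in the sources used here. Symbols, coordinates and exon lengths came from GENCODE M21 (GRCm38), which lacks 12 of the 13227 identifiers. Every gene had a second-highest CPM of at least 1.003, so genes under about that level were not analysed here.

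The main test was the two-sided quasi-likelihood F test of edgeR 4.0.16 (R 4.3.3; glmQLFit and glmQLFTest) on the 4 hearts of each genotype, after filterByExpr, which kept 13226 genes, and TMM scaling, with Benjamini-Hochberg adjustment over all genes, threshold 0.05. The SE is the absolute log2 fold change over the square root of F, and log2 CPM uses a prior count of 2. The test was tried on simulated data in which each gene was drawn independently. A shift shared by many genes of a single heart, as in non-transgenic B, was not covered by it. Alternatives used DESeq2 1.42.0, limma 3.58.1, other scalings and filters, and fewer libraries. Hearts are told apart by letters, and nothing says the letters pair animals. The p-values of the fits weigh the difference between genotypes against the spread between hearts of a group.

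The members, lists and tests were chosen with earlier results of these data known. Values per heart were given for the 10 genes with the smallest p, those without overlap, the 2 highest and 2 lowest per kilobase, those with a heart far from its group, and the 3 further pathway genes with the smallest p in each direction. Tfam, Polrmt, Polg and Lrpprc were added after their values were seen. Precision rests on the counts per gene and on 4 hearts per group. No library repeated another (every pair of libraries within a group had a chi-square over its degrees of freedom of 19.7 or more).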

Additional observations from a re-analysis of the deposited data

Results flagged for a closer look

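Chance alone sets a sample apart by the gap used here in about 1 in 20 groups of 4 hearts. Among the genes of the mitochondrial machinery, non-transgenic heart B stood above the other non-transgenic hearts for Mterf3 (31.1 CPM against 24.2 to 24.9), Mtpap (30.1 against 24.4 to 24.9) and Pnpt1 (55.9 against 35.9 to 37.9). Transgenic heart E was low for Mterf3, at 20.8 CPM against 24.4 to 24.9 in the other transgenic hearts. Non-transgenic heart E was high for Twnk, at 42.2 CPM, where the other 3 all rounded to 36.8 CPM. Of the further pathway genes, Trmt5 was high in transgenic heart A, at 33.3 CPM against 26.3 to 27.4. Fastkd1 was high in the library labelled non-transgenic D, at 192 CPM against 26.3 to 33.8 in the other non-transgenic hearts. In all, 7 of 76 groups of 4 values were set apart in this way.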

How the results depend on the processing

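None of the 31 genes passed the threshold of 0.05 under any of the 20 alternatives. At an adjusted p under 0.10 the count was 0 in the reported fit and in 19 alternatives, and 1 (Mterf2, 0.0900) with non-transgenic D and transgenic A both left out. The median log2 fold change of the 31 genes stayed between -0.10 and 0.03. Of 616 values over genes and settings, 69 had another sign than the reported one, all of them between -0.15 and 0.11 and none called, and 13 of the 31 genes kept their sign in every setting. The count of all genes past the threshold, 165, was 408 with DESeq2, 632 with limma-voom sample weights and 276 with non-transgenic D and transgenic A both left out. Of the 92 further pathway genes, 2 passed, and 4 with limma-voom sample weights, which added Trmt5 and Pus1 (adjusted p = 0.0425 and 0.0349). With a replicate block on title letters A, B and E, 0 of the 31 and 0 of the 92 genes passed in edgeR, on 6 libraries. Deviations of same-lettered hearts correlated at 0.297 (A), -0.085 (B) and 0.36 (E) over all tested genes and at 0.151, 0.13 and 0.502 over the 31 genes. Over all tested genes the closest transgenic heart was A for non-transgenic A and B, and C for non-transgenic E. The labels name no shared litter or day, so the letters were not taken to pair the hearts. These correlations cannot decide it, since that of heart B also holds its relation to GC content. Leaving out single libraries moved the difference in the mitochondrially encoded share from -1.54 to 2.29 percentage points, and it was -1.54 without non-transgenic D, -0.653 without non-transgenic E and -0.807 without transgenic A; the cause was not tested. At 42 to 75 counts per heart, Mterf1a is limited by depth, and its interval covers counting error and the spread between hearts.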

Other observations

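Further members share exon bases with genes on the other strand. Gm26865 covers 18.5% of the Mtpap exon bases and Taco1os 17.7% of those of Taco1, and neither is in the counts. The overlapping genes named above had their own values. Tmem263, beside Mterf2, had a log2 fold change of 0.03 (edgeR adjusted p = 0.961), Sned1, beside Mterf4, -0.35 (edgeR adjusted p = 0.812), and Mrpl43, beside Twnk, 0.11 (edgeR adjusted p = 0.77).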
